A study of Mus musculus with 2 samples.

Results

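Protein folding genes of the endoplasmic reticulum (ER) and heat shock genes of the cytosol and mitochondria were examined in tumour-infiltrating monocytic myeloid-derived suppressor cells (M-MDSCs) from mice on a normal-salt diet (NSD) or a high-salt diet (HSD). The list was fixed by gene name and held 41 genes, 26 of the ER and 15 of the cytosol and mitochondria. A gene entered with each non-control probe whose identifier was a RefSeq transcript of that gene, and where a gene had several, the probe brightest on average over both arrays (on the log2 scale) stood for it. This gave 40 genes with 54 probes, out of 20649 genes and 27217 named probes in the whole data. Hspa1b found no probe by this rule and has no value of its own here.

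The RNA came from female BABL/c mice that had been starved for a day, injected under the skin of the left armpit with 1000000 cells of the 4T1 mammary carcinoma line and randomised to a diet for 16 days. The NSD group received chow with 0.4% NaCl and tap water. The HSD group received chow with 4% NaCl and water with 1% NaCl. The age of the mice is not in the sample labels. All mice carried tumours, so tumour-free animals were not part of the comparison. M-MDSCs were taken out of the tumours with an isolation kit, equal numbers of cells were mixed within a diet, and each pool was hybridised in a single colour (Cy3) to 1 Agilent mouse expression array. With 1 array per diet there is no spread between mice and no test of the diet. How precise the values below are is limited by this number of arrays.

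Secretory and membrane proteins fold in the ER with the help of an Hsp70 chaperone (BiP), an Hsp90 chaperone (GRP94), lectin chaperones that bind sugar chains, and isomerases that form disulfide bonds. Proteins that fail to fold are drawn back into the cytosol and destroyed by ER-associated degradation (ERAD). When unfolded proteins accumulate, the sensors IRE1, PERK and ATF6 switch on the unfolded protein response, in which the transcription factors XBP1 and ATF6 raise chaperone and ERAD genes. The cytosol has a separate system of Hsp70, Hsp90 and small heat shock proteins, whose inducible members are switched on by heat shock factor HSF1. Among cells of the blood lineages, the ER machinery is known above all from plasma cells and other strongly secreting cells.

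Signals are processed signals in intensity units, and log2 fold changes are HSD minus NSD, each array first being scaled to its own 75th percentile. A gene counted as higher or lower when it was at least 1.5-fold apart, a log2 value of 0.58. The arrays shared a slide. The software called 71.9% and 72.4% of 39413 probes well above background on the NSD and the HSD array, and no spot was saturated. Of the marker genes for monocytic myeloid cells, 9 of 10 had a probe and all 9 were well above background on both arrays. The signal of Itgam, which encodes CD11b, was 31564 and 31043 on the NSD and the HSD array, and that of Ly6c1 was 51811 and 48478. Of 10 neutrophil markers, 9 had a probe and all 9 were well above background on both arrays, with a summed signal of 289680 and 279333. Transcripts of both marker lists were thus present in the pools, and which cells carried them was not tested.

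Some of the ER genes hold a known element near the start site. The list holds chaperone and ERAD genes, which the unfolded protein response raises, so finding its element there is background and not a result. The ER stress response element (ERSE), which ATF6 binds together with the factor NF-Y, was searched as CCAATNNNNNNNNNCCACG on both strands, from 250 bases before to 50 bases after each RefSeq start site (GRCm38.p6). It stood in 9 of the 22 ER genes with such a window (40.9%), and in 37 of all 27025 genes (0.137%), or 39 of 32851 windows (0.119%). No window was found for Atf6, Derl1, Hyou1 and Manf. Positions below are counted from the start site, with −1 for the base just before it. The sequences are printed to let the element be seen next to the genes whose values follow. They run 5′ to 3′ along the gene's strand, with the element in capitals, and a gene whose element lies on the opposite strand shows it as its reverse complement, starting with CGTGG. For Hspa5 the whole stretch upstream of the start is given, with the element at −65 to −47.
Hspa5, chr2:34771840-34772089, plus strand: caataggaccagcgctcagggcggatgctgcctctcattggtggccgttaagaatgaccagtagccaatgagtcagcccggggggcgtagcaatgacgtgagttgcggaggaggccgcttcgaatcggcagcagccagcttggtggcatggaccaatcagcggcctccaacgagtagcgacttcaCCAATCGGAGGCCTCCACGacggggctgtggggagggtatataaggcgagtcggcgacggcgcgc
Calr, chr8:84847055-84847113, minus strand: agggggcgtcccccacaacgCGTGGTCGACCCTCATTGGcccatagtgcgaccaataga
Canx, chr11:50325780-50325838, minus strand: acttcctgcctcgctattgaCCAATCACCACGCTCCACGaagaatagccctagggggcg
Creld2, chr15:88819500-88819558, plus strand: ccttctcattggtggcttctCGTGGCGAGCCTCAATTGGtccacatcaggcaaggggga
Derl3, chr10:75893222-75893280, plus strand: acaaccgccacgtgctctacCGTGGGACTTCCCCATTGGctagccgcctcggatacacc
Dnajc3, chr14:118937807-118937865, plus strand: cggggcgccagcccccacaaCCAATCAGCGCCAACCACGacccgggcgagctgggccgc
Hsp90b1, chr10:86705618-86705676, minus strand: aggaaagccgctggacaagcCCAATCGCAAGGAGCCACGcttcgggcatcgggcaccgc
Pdia6, chr12:17266471-17266529, plus strand: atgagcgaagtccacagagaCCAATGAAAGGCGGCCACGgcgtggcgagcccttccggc
Syvn1, chr19:6046512-6046570, plus strand: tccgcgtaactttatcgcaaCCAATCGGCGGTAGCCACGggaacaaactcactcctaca
The elements lay at −162 to −144 in Calr, −145 to −127 in Canx, −126 to −108 in Creld2, −156 to −138 in Derl3, −105 to −87 in Dnajc3, −98 to −80 in Pdia6 and −44 to −26 in Syvn1. Hsp90b1 held 2 copies, the printed one at −212 to −194 and another on the opposite strand at −107 to −89. A shorter relative, ERSE-II, was searched as ATTGG, any base and CCACG, and stood in 12 of all windows (0.0365%), among them those of Herpud1 and Dnajb11. No window of a listed gene held ERSE and ERSE-II at once. In Herpud1 ERSE-II lay at −52 to −42.
Herpud1, chr8:94386357-94386407, plus strand: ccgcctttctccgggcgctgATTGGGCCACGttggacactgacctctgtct
The UPRE, the element read by XBP1, was searched as TGACGTGG, stood in 222 windows (0.676%), and was found in no listed gene. A match is a description of the letters and not a measured binding site, and the absence of a match says only that the letters are not in this window.

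The log2 fold changes of the ER genes centred slightly below 0, and those of the folding genes lay lowest. Of the 26 ER genes, 4 were lower on the HSD array by 1.5-fold or more, namely Hyou1, Sdf2l1, Pdia6 and Canx, and 0 were higher. By this rule 9.86% of all 16308 usable genes were higher and 10.3% lower. The count of lower ER genes depended on the processing. It was 7 where cyclic loess replaced the scaling, beside 12.2% of all genes, and 4 with the normexp background correction, beside 4.08% of all genes. The set was not the same with normexp, since Calr (log2 fold change −0.60) came in and Hyou1 (−0.13) dropped out. At 2-fold, Hyou1 alone of the ER genes was lower and 0 were higher, beside 4.17% lower and 2.62% higher among all genes. Higher genes made up 48.9% of all calls at 1.5-fold, or 38.5% with cyclic loess. The median log2 fold change of the ER genes was −0.13, with 18 of 26 below 0 (69.2%), beside a median of 0.045 and 45.7% below 0 among all genes. Of the 14 cytosolic and mitochondrial genes with a probe, 0 were higher and 1, Bag3, was lower, and the median was 0.11 with 5 of 14 below 0.

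**Figure D1:**
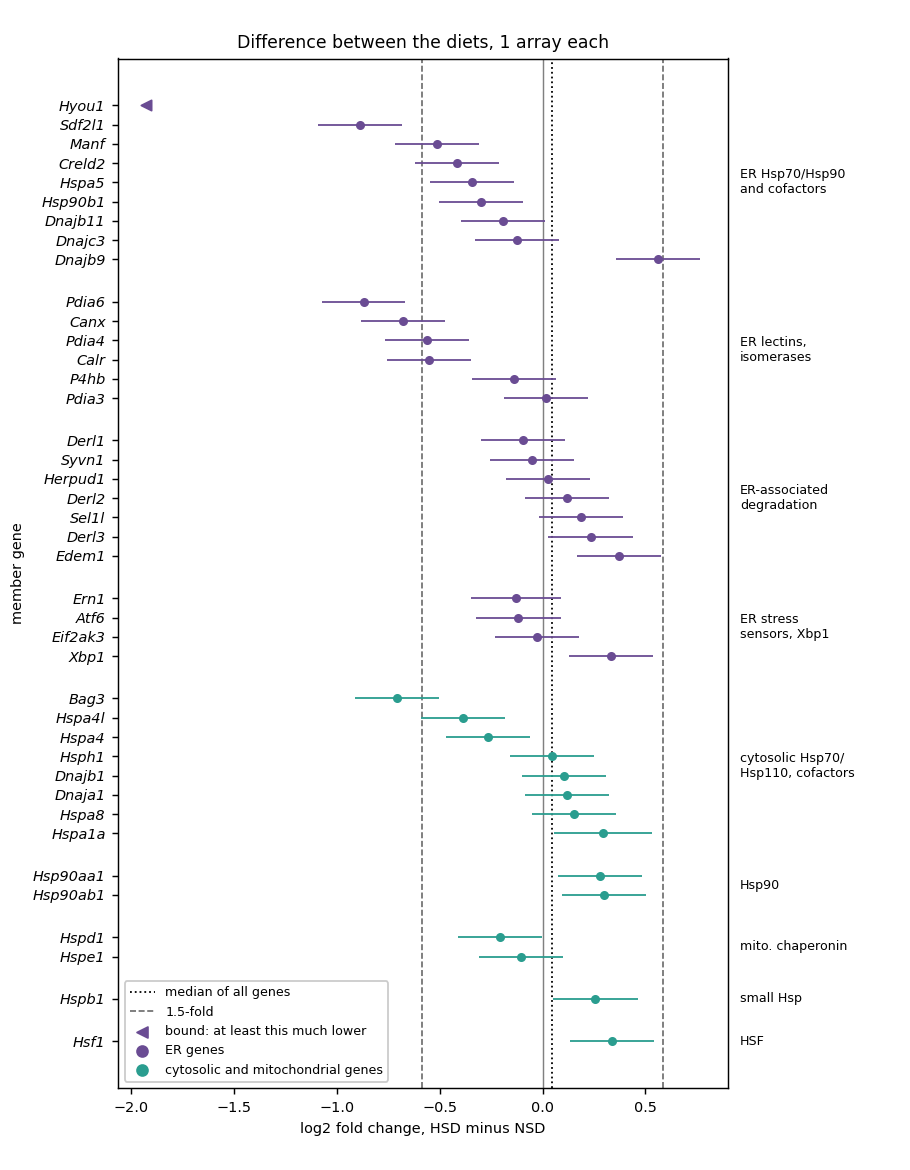
Log2 fold change (HSD minus NSD, x axis) of each listed gene, grouped by role, for ER genes in purple and cytosolic and mitochondrial genes in green. Bars are the scanner software's error for a single spot on each array and leave out any variation between cells or mice, and the arrowhead for Hyou1 is a bound. Of the 15 ER folding genes in the upper 2 groups, 13 lie left of 0, and the dashed lines at 1.5-fold are passed on the left by 4 ER genes and by Bag3, and on the right by none.

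The chaperones of the ER Hsp70 and Hsp90 systems and their cofactors formed the first role group. Of these 9 genes, 8 had log2 fold changes below 0, 2 of them past 1.5-fold, and the median was −0.34. Hspa5, which encodes BiP, the main Hsp70 of the ER, had signals of 7002 (NSD) and 5095 (HSD). This log2 fold change of −0.34 is a 1.27-fold lower value, short of the threshold. Hsp90b1, which encodes GRP94, had signals of 4750 and 3560 and a log2 fold change of −0.30. The main chaperones of this group therefore lay below the NSD value without reaching 1.5-fold. Sdf2l1, a partner of the ER Hsp40 proteins, fell from 382 to 190, a log2 fold change of −0.89 and a 1.85-fold lower value. Hyou1, the exchange factor that resets BiP, had a signal of 18.1 for NSD and of 3.74 for HSD, the latter not well above background. It was at least 3.81-fold lower by a bound set against the lowest signal among detected probes, 4.39 on the HSD array. This call rests on a dim probe. With the normexp background correction, which damps differences between dim signals, the log2 fold change of Hyou1 was −0.13.

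The other cofactors of this group were picked out after their values had been seen. Creld2, an ER-resident protein induced by ER stress, was the only listed gene printed in several spots. Its 9 usable spots on the NSD array ran from 1060 to 1138 with a median of 1115, and its 8 usable spots on the HSD array ran from 735 to 792 with a median of 767. The spots of the arrays did not overlap, and their SD on the log2 scale was 0.032 and 0.038. The log2 fold change was −0.41. Repeated spots of this kind measure the printing and reading of an array, not the mice. Manf, a secreted protein that binds BiP, had signals of 1381 and 894 (log2 fold change −0.51). Dnajb9 (ERdj4), a J-domain cofactor of BiP and a known XBP1 target, ran the other way, with signals of 465 and 635 and a log2 fold change of 0.56, or 1.48-fold higher, just inside the threshold. Its second, dimmer probe had signals of 28.2 and 30.5 (log2 fold change 0.23), so both probes had the same sign. The J-domain proteins Dnajb11 and Dnajc3 had log2 fold changes of −0.19 and −0.12, and a second probe of Dnajb11 was at background on both arrays.

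The lectin chaperones and disulfide isomerases were the role group with the lowest median, −0.56 over 6 genes, 5 of them below 0 and 2 past 1.5-fold. Pdia6, a disulfide isomerase, fell from 2985 to 1508, a log2 fold change of −0.87 and a 1.83-fold lower value. Its second probe had signals of 220 and 137 (log2 fold change −0.57). Both probes of Pdia6 were thus lower on the HSD array, the brighter one past the threshold and the other just short of it. Canx, the membrane-bound lectin chaperone calnexin, fell from 1436 to 827 (log2 fold change −0.68, 1.60-fold lower). Calr, its soluble counterpart calreticulin, had signals of 2119 and 1333 and a log2 fold change of −0.55, a 1.47-fold lower value. The value of Calr passed 1.5-fold under 5 of 10 other ways of processing. Pdia4, another isomerase, stood at a similar value, with signals of 319 and 200 and a log2 fold change of −0.56. P4hb, the classical protein disulfide isomerase, had a log2 fold change of −0.14, and Pdia3, which works with calnexin and calreticulin, one of 0.018. The group was therefore not uniform, and Pdia3 had nearly the same value on both arrays.

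**Figure D2:**
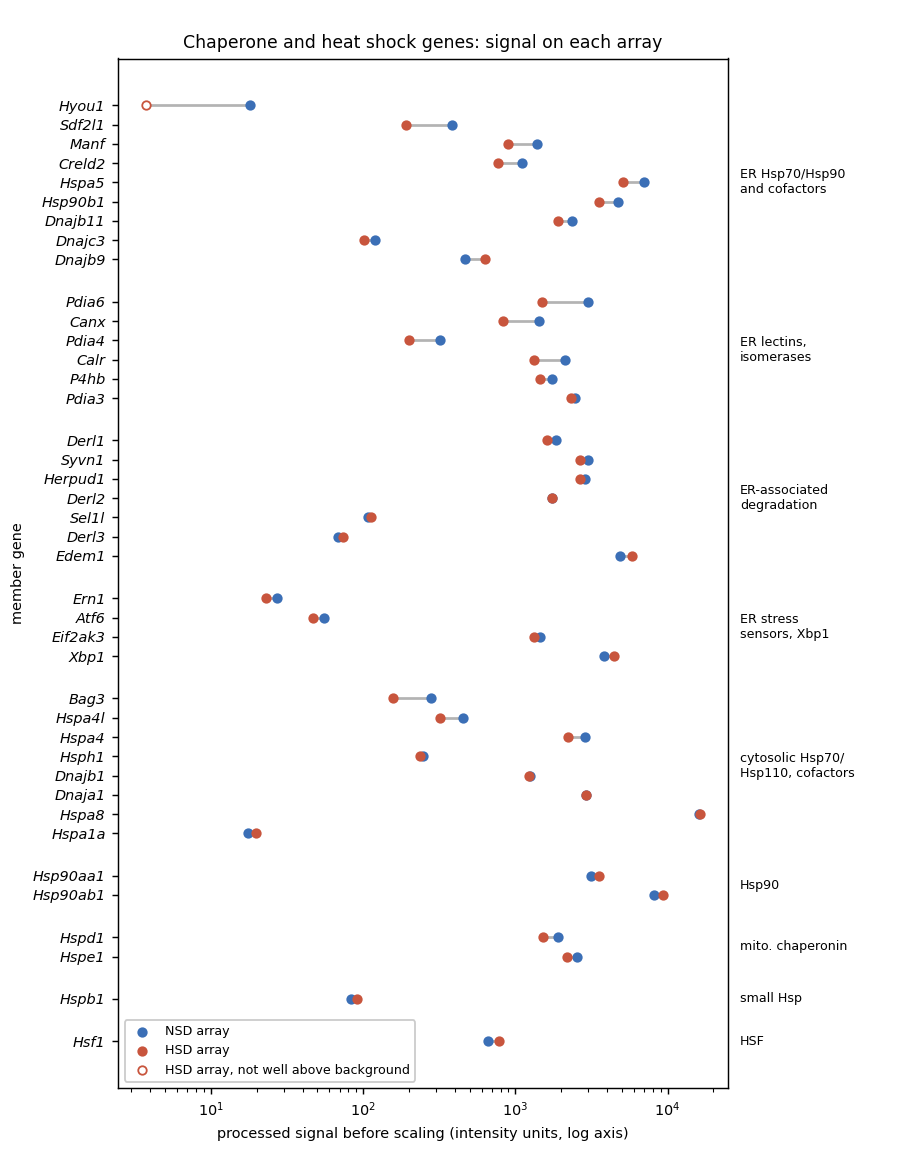
Processed signal of each listed gene on the NSD array (blue) and the HSD array (red), before scaling, on a log axis in intensity units, grouped by role. The pairs of Sdf2l1, Pdia6, Canx, Calr, Pdia4 and Bag3 are visibly apart with the HSD point on the left, while those of Hspa8, Dnaja1 and Derl2 coincide, and the open point of Hyou1 is a signal not well above background. Levels of different genes cannot be ranked, since they come from different probes.

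The genes of ERAD did not share the position of the folding genes. All 7 lay within 1.5-fold, from −0.098 for Derl1 to 0.37 for Edem1, and their median was 0.12 with 2 below 0. Edem1, which marks misfolded glycoproteins for disposal by trimming their sugars, had signals of 4862 and 5815. Sel1l and Syvn1, the adaptor and the ubiquitin ligase of the HRD1 complex, had log2 fold changes of 0.19 and −0.054. The complex thus had values of either sign near 0. Herpud1, which helps to assemble that complex and carries the ERSE-II printed above, had a log2 fold change of 0.025. For Derl2, a membrane protein of the exit route, the probes differed in sign, with log2 fold changes of 0.12 (signals 1750 and 1754), 0.17 and −0.056. Its relative Derl3 had a log2 fold change of 0.23, and the second probe of Derl1 one of −0.065.

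The sensors of ER stress were close to equal on the arrays. Ern1, which encodes IRE1, had signals of 27.2 and 22.9 (log2 fold change −0.13). Atf6 had signals of 55.0 and 46.9 (log2 fold change −0.12), and Eif2ak3, which encodes PERK, had 1456 and 1321 (log2 fold change −0.026). These sensors are switched on by cleavage or phosphorylation of the protein, which transcript levels do not show. Xbp1, whose RNA is spliced by IRE1 to give the active factor, had signals of 3852 and 4474 and a log2 fold change of 0.33, within 1.5-fold. The probe was not assigned to the spliced or the unspliced form.

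Set against each other, the 15 folding genes of the first 2 role groups and the 11 ERAD and sensor genes differed in centre. The medians were −0.41 and 0.025, with 13 of 15 and 5 of 11 genes below 0, and 4 and 0 genes lower past the threshold. Of the folding genes, 12 lay below the range of the ERAD and sensor genes, −0.13 to 0.37, 2 within it (Pdia3 and Dnajc3) and 1 above it (Dnajb9). The lower end of that range is the value of Ern1, whose signals were low (27.2 and 22.9). Among all usable genes, 34.0% lay below that end. P4hb passed it only narrowly (−0.138 against −0.131), and so this count depends on where the end falls. The role groups were merged in this way with the values known, so the contrast is a description of these 2 arrays and carries no test. Its direction was the same under 10 other ways of processing, with a difference between the medians of −0.45 to −0.35. Scaling each array by a single value cannot change that difference, and all settings reuse the same 2 arrays, so this adds no independent support.

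**Figure D3:**
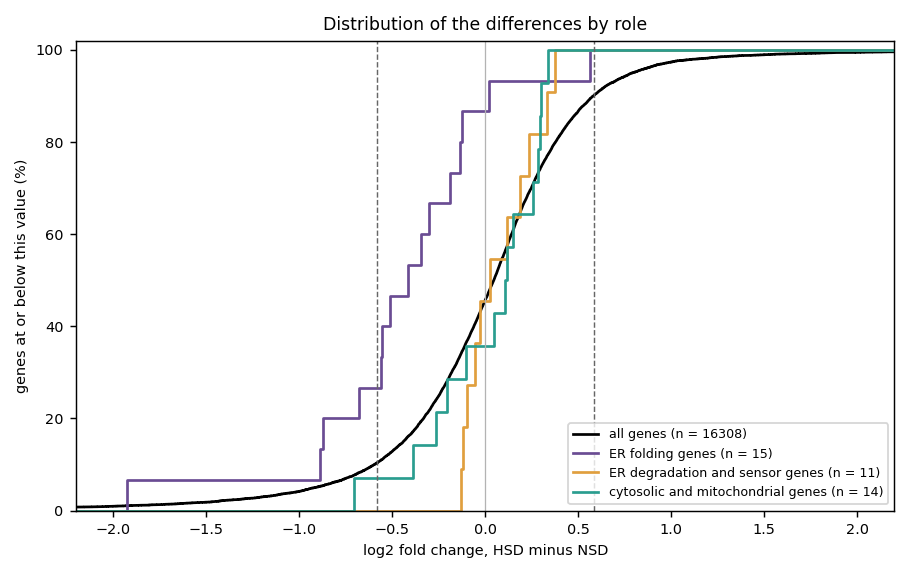
Share of genes (y axis, %) at or below each log2 fold change (x axis, HSD minus NSD) for all 16308 genes and for 3 groups of listed genes, with dashed lines at 1.5-fold. The curve of the 15 ER folding genes runs left of that of all genes over most of its course, with a median of −0.41, while the 11 ERAD and sensor genes (median 0.025) and the 14 cytosolic and mitochondrial genes (median 0.11) cross 50% near or to the right of the curve of all genes.

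The genes with an ERSE near the start site were part of this pattern. Of the 9 ER genes with the element, 8 had a log2 fold change below 0, with a median of −0.34 and a range from −0.87 for Pdia6 to 0.23 for Derl3. Of the 13 ER genes whose window lacked the letters, 6 were below 0, and the median was 0.018. The division was not clean, since Sdf2l1 and Pdia4 were among the genes without the letters. It also overlapped with role. The genes with the element were folding genes except for Derl3 and Syvn1. Those without it included Herpud1, Edem1, Sel1l, Derl2, Xbp1, Ern1 and Eif2ak3 from the ERAD and sensor groups. Element and role cannot be told apart here. Outside the list, 28 genes had the element and 11 of these a usable probe. Of these 11, 9 were below 0 and 1, Alg12, was past 1.5-fold, and the median was −0.10. Among all genes 45.7% were below 0 and 10.3% lower past 1.5-fold. The signals of Alg12 were low, 27.7 and 17.0, and those of Acnat2 (4.91 and 2.68, a bound) and Olfr59 (9.64 and 8.45) lower still. The window of Alg12, a mannosyltransferase of the ER, overlaps that of Creld2 on the other strand, and both hold the same copy of the element. This grouping was chosen after the values had been seen and has no test.

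**Figure D4:**
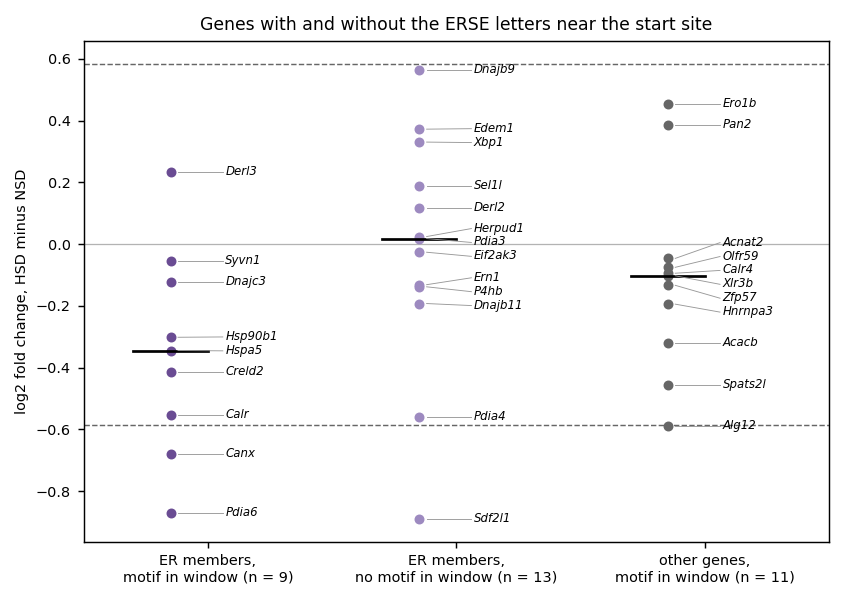
Log2 fold change (HSD minus NSD, y axis) of ER genes with the ERSE letters in the start-site window (9 genes), ER genes without them (13 genes) and other genes with them (11 genes), each point a gene, thick bars the medians, and dashed lines 1.5-fold. The medians are −0.34, 0.018 and −0.10, and the groups overlap.

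The cytosolic and mitochondrial genes gave a different picture, with 9 of 14 above 0 and most values small. Hspa8, the constitutive Hsp70, had signals of 15998 and 16415 (log2 fold change 0.15), and its other probes had log2 fold changes of 0.44 and 0.13. Hspa1a, the heat-inducible Hsp70, had a low signal of 17.5 and 19.8 (log2 fold change 0.29). Hspa1a and Hspa1b are near-identical copies, and the probe may also read Hspa1b. The inducible Hsp70 was therefore weak in signal on both arrays, and no difference past 1.5-fold was seen. Hsp90ab1 and Hsp90aa1, the constitutive and the inducible cytosolic Hsp90, had log2 fold changes of 0.30 (signals 8191 and 9318) and 0.28 (signals 3150 and 3535). Hsf1, the heat shock factor itself, had signals of 665 and 775 and a log2 fold change of 0.34. The small heat shock gene Hspb1 had a log2 fold change of 0.26. None of these values passed 1.5-fold.

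Bag3 was the exception in this list. It is a cofactor that couples Hsp70 to autophagy and fell from 278 to 157, a log2 fold change of −0.71 and a 1.63-fold lower value. With the normexp background correction the value was −0.52 and no longer past 1.5-fold. The Hsp110-type exchange factors were not uniform. Hspa4l had signals of 452 and 320 (log2 fold change −0.39), and Hsph1 had a log2 fold change of 0.046, with 0.019 for its second probe. Hspa4 depended on the probe, since its brightest one had signals of 2871 and 2205 (log2 fold change −0.27), the next 104 and 183 (0.93) and the last 79.1 and 101 (0.47). No direction can be given for Hspa4 from these arrays. The Hsp40 genes Dnajb1 and Dnaja1 had log2 fold changes of 0.10 and 0.12. The second probe of Dnaja1, with signals of 11.7 and 9.36, had −0.21, against 2898 and 2906 for the first.

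The mitochondrial chaperonin is encoded by Hspd1 and Hspe1, which lie head to head and share a promoter. Hspd1 had signals of 1896 and 1518 (log2 fold change −0.21) and Hspe1 had 2555 and 2193 (log2 fold change −0.11), and the other probes of Hspe1 had −0.11 and −0.44. The pair thus had values of the same sign, within 1.5-fold. The heat shock element was searched as GAANNTTCNNGAA and TTCNNGAANNTTC. It stood in 198 of all windows (0.603%) and in 179 of 27025 genes (0.662%). Of the 11 cytosolic and mitochondrial genes with a window, 3 held it (27.3%), namely Hspd1, Hspe1 and Hsph1. In the chaperonin pair it is the same stretch, read from either strand, with a pair of overlapping matches in capitals.
Hspd1, chr1:55088039-55088096, minus strand: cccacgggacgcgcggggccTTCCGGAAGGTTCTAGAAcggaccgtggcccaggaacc
Hspe1, chr1:55088039-55088096, plus strand: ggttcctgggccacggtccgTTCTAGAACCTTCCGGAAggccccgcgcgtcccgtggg
No window was found for Hsf1, Hsp90aa1, Hsp90ab1 and Hspa8.

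The differences can be set beside the error that the scanner software assigns to the signals, which leaves out any variation between cells or mice. The software's error of a log2 fold change from a single spot on each array was 0.20 for most listed genes, and 39 of the genes had a single spot. It came from an error close to 10% of the signal for most of them, so 2 errors acted as a nearly fixed limit. Of the 25 ER genes measured on both arrays, 7 were lower by more than 2 such errors, namely Calr, Canx, Pdia4, Pdia6, Sdf2l1, Creld2 and Manf, and 1 was higher, Dnajb9. The other 17 were within 2 errors, Hspa5 and Hsp90b1 among them. Creld2 had the smallest difference of the 7, and 16.1% of all usable genes had a log2 fold change below its own. For Dnajb9 this share was 89.4%. Genes beyond 2 errors were not counted over all genes, so the 7 cannot be called unusual by this measure. Of the 14 cytosolic and mitochondrial genes, Bag3 alone lay beyond 2 errors, and 7.65% of all usable genes had a log2 fold change below its own. Between repeated spots of the 289 probes printed several times, the median SD was 0.082, or 0.12 for a difference between single spots. This measured spread is smaller than the software's error. Hspa5 and Hsp90b1 lay within 2 errors only by the software's figure.

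Many of the listed genes gave bright spots, where fewer genes differ. Among the 3041 genes measured on both arrays with a geometric mean signal of 1128 units or more, 7.93% were higher and 5.46% lower by 1.5-fold, and the median log2 fold change was 0.11 with 35.5% below 0. The 14 ER genes in that range had a median of −0.076 with 9 below 0 and 1, Pdia6, past 1.5-fold. The 8 cytosolic and mitochondrial genes there had a median of 0.11, equal to that of the bright genes as a whole, with 3 below 0.

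Other genes of the same pathways were taken from lists of known members. Of 42 further ER folding and degradation genes, 4 rose and 7 fell by 1.5-fold or more, and the median was −0.036 with 23 below 0. Among all genes, 9.86% were higher and 10.3% lower by this rule, so such calls are common anywhere on these arrays. The higher ones were Ero1a, the oxidase that recharges the isomerases (from 262 to 513, log2 fold change 1.08), Bhlha15 (0.77), Crebrf (0.73) and the isomerase Pdia5 (0.63). The lower ones with the largest differences were Ssr1, a subunit of the translocon-associated complex (from 1585 to 852, log2 fold change −0.78), Wfs1 (−0.69), Sil1, an exchange factor of BiP (−0.69), and the thioredoxin-like proteins Erp29 (−0.64) and Erp44 (−0.61). Taken over this wider list, the centre lay near that of all genes and the calls went both ways. Of 39 further cytosolic and mitochondrial chaperone genes, 37 had a usable probe, of which 0 were higher and 3 lower, with a median of −0.059. The shares to set beside these counts are again 9.86% and 10.3% of all genes. The lower ones were Hspb11 (from 284 to 136, log2 fold change −0.95), Bag5 (−0.70) and Dnajb2 (−0.64). The positive centre of the listed cytosolic genes was therefore not seen in this longer list, which included the subunits of the cytosolic chaperonin.

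The integrated stress response is the branch that PERK and related kinases start through Atf4. Of its 10 genes, 2 were higher and 2 lower, beside 9.86% and 10.3% of all genes, and the median was 0.20. Nupr1 rose from 494 to 1181 (log2 fold change 1.37) and Ppp1r15a, which ends the response by restoring translation, from 339 to 489 (0.64). Cebpg fell from 637 to 207 (−1.51) and Atf3 from 587 to 217 (−1.32). Atf4 had a log2 fold change of 0.19, and Ddit3, which encodes CHOP, one of 0.38. Members of this list thus passed 1.5-fold in either direction, but the list is too short to set these counts apart from the shares of all genes.

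Chaperone levels differ between cell types, and in pooled cells a smaller share of a cell type and less RNA per cell cannot be told apart. Of 10 markers of plasma cells and B cells, 9 were well above background on each array, with a summed signal of 8833 in the NSD and 11172 in the HSD group and a median log2 fold change of 0.40. Jchain, the joining chain of antibodies, rose from 1205 to 2166 (log2 fold change 0.96), and Tnfrsf17, which encodes the plasma cell receptor BCMA, was below that limit on both. Jchain alone of these markers passed 1.5-fold. Sdc1 had signals of 80.2 and 61.7 (log2 fold change −0.26), and Prdm1 had a log2 fold change of 0.032, so the markers were not uniform. The summed signals of 9 monocytic markers, before scaling, were 109482 and 101339, and their median log2 fold change was 0.018. Of these markers 2 rose, Cd14 (from 2337 to 3804) and Cx3cr1 (from 119 to 188), while 2 fell, Ccr2 (from 259 to 139) and Fcgr1 (from 305 to 21.9). Neutrophil markers had a median log2 fold change of 0.069, with 1 of 9 lower, Mpo. Among 8 carcinoma markers the summed signal was 137 and 139, but 3 dim ones rose, Epcam, Krt18 and Krt8 (log2 fold changes 0.70, 0.76 and 0.61), and Krt19 was at background on both arrays. Among 8 dendritic cell markers, whose summed signals of 14730 and 14251 came mostly from Siglech (13705 and 13214), Clec9a and Itgax rose (0.80 and 0.74) and Cd209a fell from 14.3 to a signal at background (a bound of −1.58), with Xcr1 at background on both arrays. The summed signals of 8 T and NK cell markers were 2317 and 2605, mostly Cd3d (1501 and 1871), while Cd3e fell (−1.09) and Ncr1 was at background. Fibroblast markers summed to 143 and 111 over 6 genes, of which Col3a1 and Dcn fell (−1.09 and −0.80) and Lum and Pdgfra were at background. Endothelial markers summed to 502 and 518 over 6 genes with none past 1.5-fold and Emcn at background. The part of these cell types in the chaperone values was not tested.

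**Figure D5:**
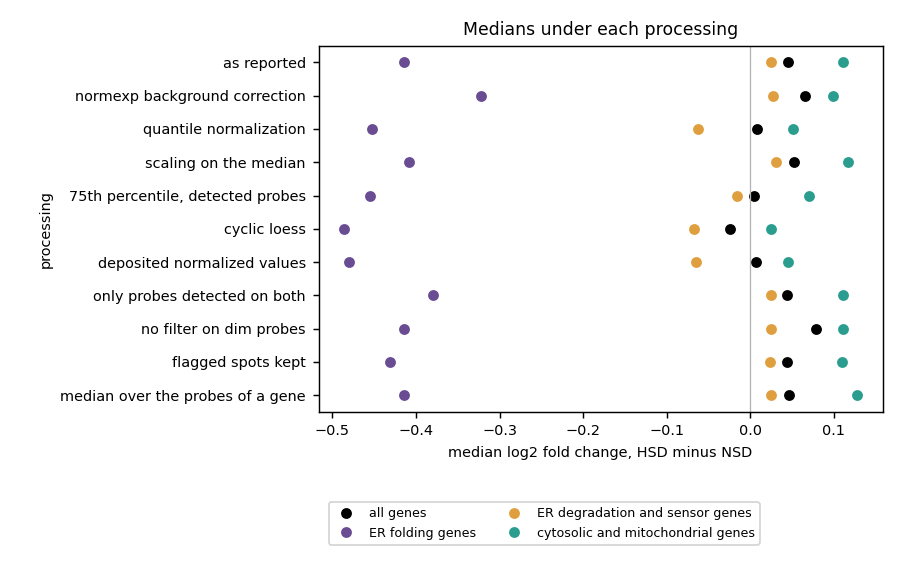
Median log2 fold change (HSD minus NSD, x axis) of all genes, ER folding genes, ERAD and sensor genes and cytosolic and mitochondrial genes under the reported processing and 10 others (y axis). The median of the ER folding genes stays between −0.49 and −0.32 in the 10 others, below the medians of the other 3 groups in each.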

How the data were processed

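RNA of pooled tumour M-MDSCs was measured on Agilent mouse arrays, 1 per diet. The authors deposited scanner output (Feature Extraction 11.0.1.1), whose processed signals are intensity values corrected for background, without normalization between arrays. A deposited table of log2 values that the authors had normalized in GeneSpring, with the method not given in the sources used here, served as an alternative, and 0 of its sample columns were unused. The scanner files carry transcript identifiers and no gene names. RefSeq (GRCm38.p6) named 27217 of 39413 probes (69.1%).

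Controls and flagged spots (162 NSD, 179 HSD) were dropped. Log2 signals were averaged over a probe's spots and scaled by subtracting the array's 75th percentile. A gene was usable when its probe was well above background (at least 50% of its spots) on at least 1 array. Where the other array was dim, the fold change is a bound, set at the lowest detected signal or at the probe's own where that was higher. With 1 array per diet, differences are described and not tested. The listed genes, the other 3 gene lists and the 8 marker lists were chosen with earlier results of these data known. Signals were to be given for listed genes past 1.5-fold, for the brightest and dimmest of a list, for those with probes of differing sign and for the main chaperones and sensors. Of the other pathway lists, at most 5 genes per direction past 1.5-fold were to be named. Other genes were chosen after their values were seen. The alternatives were normexp correction with an offset of 50, 4 other scalings, the deposited values, other filters, flagged spots kept, the median over probes and a 2-fold threshold. The script that counts genes past a threshold was checked on simulated signals with known changes, which tests the script and not the diet. The software was Python 3.11.15 (numpy 2.4.6, pandas 2.3.3, matplotlib 3.10.9) and limma 3.58.1 in R 4.3.3.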

Additional observations from a re-analysis of the deposited data

How the results depend on the processing

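Most counts and medians kept their side under the alternatives. With the normexp background correction the count of cytosolic and mitochondrial genes at least 1.5-fold lower was 0 in place of 1, since Bag3 dropped out, and 3.89% of all genes were higher and 4.08% lower. With a 2-fold threshold these counts were 0 for the cytosolic and mitochondrial genes and 1 for the ER genes, Hyou1, and 2.62% and 4.17% for all genes. Cyclic loess gave 7 ER genes at least 1.5-fold lower in place of 4, since Calr, Pdia4 and Manf came in. Their log2 fold changes were −0.64, −0.60 and −0.59, against −0.55, −0.56 and −0.51 as reported. The median of all genes was −0.024 with cyclic loess and 0.045 as reported. Why the values shifted was not tested. The number of genes past 1.5-fold was 1608 higher and 1681 lower as reported, 625 and 655 with normexp, and 2903 and 2211 without a filter on dim probes. The median of the ER genes ran from −0.18 to −0.065 and that of the cytosolic and mitochondrial genes from 0.024 to 0.13, that of the ER folding genes from −0.49 to −0.32 and that of the ERAD and sensor genes from −0.067 to 0.031, so the last has no settled sign, while the median of all genes ran from −0.024 to 0.078. Of the 26 ER genes, 16 were below 0 and 6 above 0 throughout, and 4 changed sign (Pdia3, Herpud1, Syvn1 and Ern1). Hspa4 and Dnaja1 changed sign in the other list, under the median over probes. Dim probes limit Hyou1 and Hspa1a. No array could be left out, since each diet has 1. No paired analysis was possible because each diet has 1 array.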
